A study of Mus musculus with 16 samples.

Results

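The effect of the Lmo2 transgene in thymocytes that lack p21 was measured by comparing 2 Lmo2Tg;p21-/- libraries with 2 p21-/- libraries, for every gene. These 4 libraries were chosen by their genotype labels from the 16 samples of the series, of which 9 genotype libraries have counts that could be used. The study asked whether p21, the cell-cycle inhibitor encoded by Cdkn1a, is needed for the long-lived, slowly cycling thymocytes of Lmo2-transgenic mice. RNA was taken from sorted DN3 thymocytes (CD4-CD8-CD25+CD44-) of 6-week-old mice and sequenced after poly-A capture. The strain is C57BL/6 in the labels and C57BL/6J in the study's methods. RNA was prepared from pools of sorted cells of 3 to 5 mice, as stated for global expression beside an array protocol, and the exact number behind each library is not given in the sources used here. The p21-/- mice came from a Cdkn1a knockout line, and the Lmo2Tg;p21-/- mice carried the same knockout together with CD2-Lmo2, a transgene in which CD2 regulatory elements drive Lmo2 in T cells. Both groups therefore lacked p21, and by their labels they differ in the transgene. The libraries with p21 were 3 wild-type and 2 Lmo2Tg libraries. They give the effect that is set beside this one, and they also entered the filter, the scaling and the shared estimate of spread. Nothing in the sources says whether the pools came from separate cohorts. The p-values therefore measure only the spread between libraries within the groups of all 9 libraries, which may be technical.

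LMO2 is a LIM-domain adaptor that does not bind DNA itself. It joins LDB1 to basic helix-loop-helix factors such as TAL1 or LYL1 and to GATA factors, and it is active in blood stem and progenitor cells. T-cell progenitors normally silence LMO2 and some of its partners, such as TAL1 and LYL1, when they commit to the T lineage. This is at about the stage at which they start to rearrange the T-cell receptor beta chain gene. Sustained LMO2 in thymocytes precedes T-cell acute lymphoblastic leukaemia in mice and people.

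The 4 libraries held 13864936 to 16837667 counts over 22114 genes, and 11840 genes had enough counts to be tested. Levels are given in CPM, counts scaled to the size of the library and not to the length of the gene, so values are compared between libraries and not between genes. Pairs of values are given in the order replicate 1, replicate 2, and the transgenic libraries are the Lmo2Tg;p21-/- libraries unless the Lmo2Tg libraries are counted with them. A floor of 3 counts corresponded to 0.176 to 0.214 CPM in these libraries, and it covers counting error only. In a principal component analysis of the 9 libraries the first component held 68.4% of the variance, with the 4 transgenic libraries at 43.3 to 49.7 and the 5 others at -45.4 to -30.2. The second component held 13%. On it the Lmo2Tg libraries were at 21.2 and 27.4, the Lmo2Tg;p21-/- libraries at -30 and -21.5 and the 5 others at -10.3 to 14.2. In 3 respects, libraries stood apart from the rest. p21-/- replicate 1 had Ddx3y, a Y-linked gene, at 0.234 CPM. The gene stood at 55.5 CPM in p21-/- replicate 2 and at 91.1 and 106 CPM in the transgenic libraries, so the pools differed in Y-linked RNA. Since p21-/- replicate 1 belongs to the p21-/- group, this difference lies partly between the groups compared. The tests held no term for it. p21-/- replicate 2 had a higher summed level of 37 activation-induced genes, 2770 CPM against 1350 CPM in replicate 1, and of erythroid genes, 33.7 CPM against 5.75 CPM. Lmo2Tg;p21-/- replicate 1 had lower levels of mitosis genes than replicate 2 for 36 of 36 genes.

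Lmo2 and the targeted gene Cdkn1a were examined first. Lmo2 (ENSMUSG00000032698, chr2:103957986-103981878 on mm10, plus strand) stood at 0.176 and 0.19 CPM in the p21-/- libraries and at 85.4 and 107 CPM in the transgenic libraries. The log2 fold change was 8.98 ± 0.59 (SE), with an adjusted p of 2.3e-06 (quasi-likelihood test of edgeR, adjusted over all genes tested by Benjamini and Hochberg's method). Reads of the transgene and of the endogenous gene cannot be told apart in a count per gene. Cdkn1a (chr17:29090976-29100727, plus strand) stood at 36.5, 37.5 and 49.0 CPM in the wild-type libraries and at 14.3 and 17.7 CPM in the p21-/- libraries, below every wild-type library but well above the floor. Counts per gene do not show whether these reads lie in the deleted part. Cdkn1a fell further with the transgene, to 4.35 and 3.5 CPM, a log2 fold change of -2.03 ± 0.22 (SE) and an adjusted p of 5.7e-05. It overlaps AC167363.2 on the other strand, and the strand setting of the counting is not given in the sources used here.

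**Figure D1:**
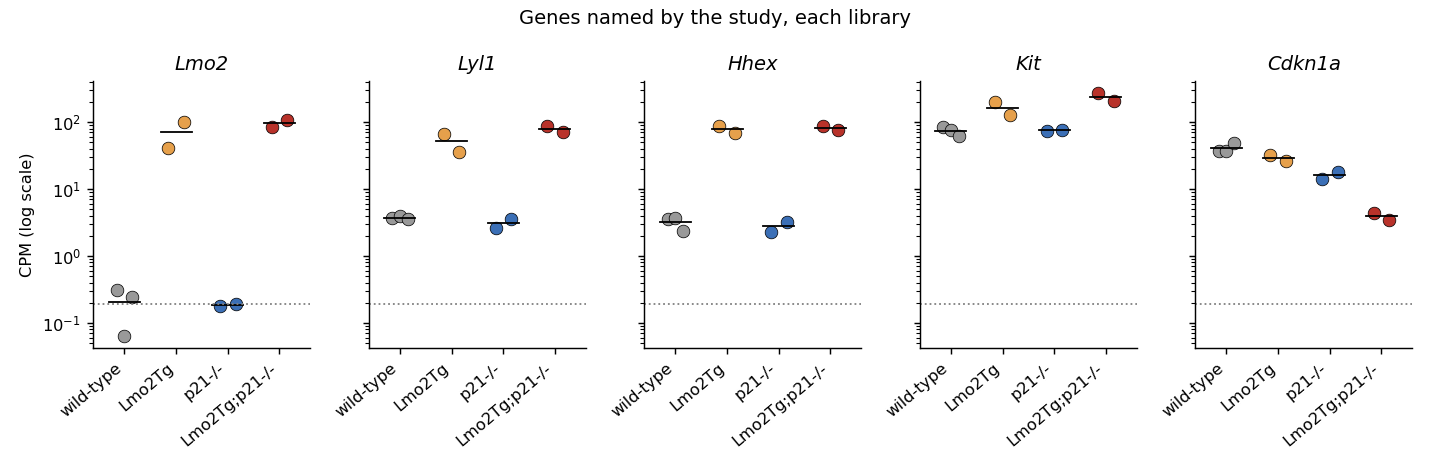
CPM on a log scale of the 5 genes that the study names, with 1 point per library, the mean of each group as a line and the floor of 3 counts in a library of mean depth as a dotted line. Lmo2, Lyl1, Hhex and Kit lie higher in both transgenic groups than in the groups without the transgene, and Cdkn1a is lowest in the Lmo2Tg;p21-/- libraries, at 4.35 and 3.5 CPM.

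The transgene was accompanied by many changes in both directions. At a false discovery rate of 0.05 and a fold change above 2, the rule for a called gene used throughout, 728 genes were higher and 502 were lower in Lmo2Tg;p21-/- than in p21-/- cells. These are 6.15% and 4.24% of the genes tested, and 10.4% together. The counts called in the gene lists below are to be read beside these shares. At any fold change, 1930 genes were higher and 1709 lower at an adjusted p under 0.05, or 16.3% and 14.4%, and the median log2 fold change of all genes was 0.00. The libraries of the groups did not overlap for 70.9% of all genes tested, with 35.5% higher in both transgenic libraries and 35.4% lower in both. Large changes were mostly rises: 149 called genes rose by more than 3 on the log2 scale, against 71 that fell by more than 3, and 51 rose by more than 5, against 10 that fell by more than 5. Among the called genes, 73 of the higher had no more than 3 counts in each p21-/- library, and 55 of the lower had no more than 3 counts in each transgenic library.

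**Figure D2:**
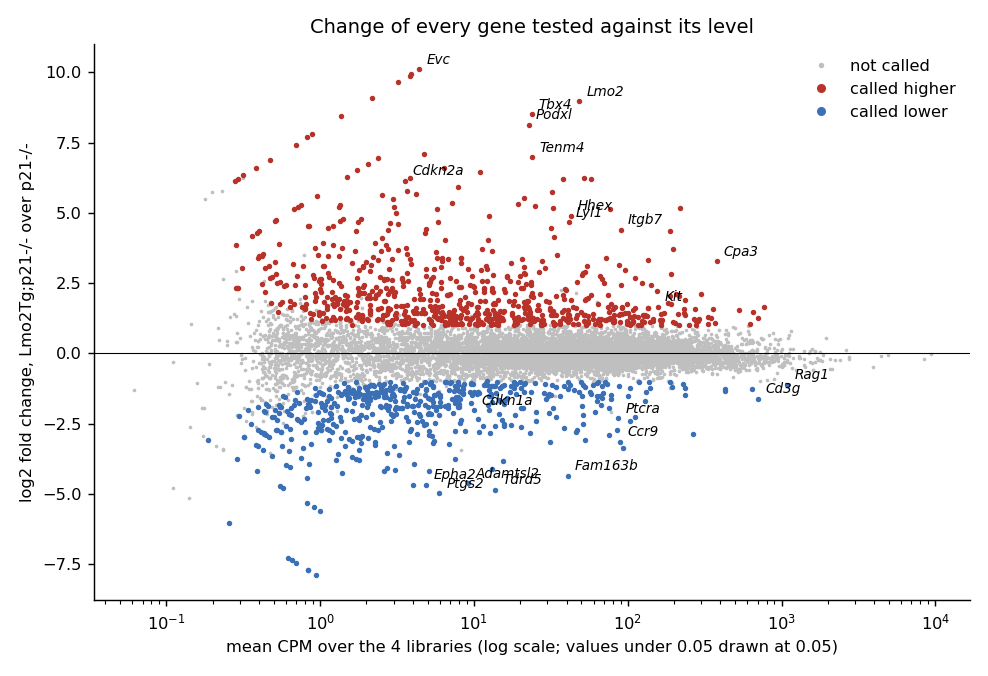
The log2 fold change of each of the 11840 genes tested against its mean CPM over the 4 libraries on a log scale, with called genes in colour. Called rises reach higher values than called falls, and Lmo2, Tbx4 and Podxl are the highest points to the right of 10 CPM.

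Genes were ranked by fitted log2 fold change where they were called, averaged 1 CPM or more and did not overlap between groups. For genes with 0 counts in a group the counts give only a lower bound, so their place in the ranking is not settled. The bound of Ryr2 is 23.8-fold, for example, while Hhex, outside the 12, rose 29.9-fold. The 12 largest fitted rises included genes better known from other tissues. Evc, a ciliary protein of Hedgehog signalling, had 0 counts in both p21-/- libraries and 3.71 and 13.9 CPM in the transgenic libraries, at least 48.1-fold higher against a floor of 3 counts per library. Slc22a4, an organic cation and ergothioneine transporter, went from 0 counts in both to 4.14 and 11.4 CPM, at least 42.4-fold higher. Cdh13, an unusual cadherin anchored to the membrane by a lipid, went from 0 counts to 11.1 and 4.11 CPM, at least 41.7-fold higher. The transgenic replicates differed by more than 2-fold for all 3 genes, while neither p21-/- library held a read of them. Kcns3, a modulatory potassium channel subunit, rose at least 35.3-fold to 7.35 and 5.55 CPM, and Ryr2, a calcium release channel best known from heart muscle, at least 23.8-fold to 4.85 and 3.86 CPM. Both of these were close between the transgenic replicates. Proser2 rose from 0 counts to 1.14 and 4.35 CPM, at least 15-fold, but its adjusted p of 0.015 became 0.074 without Lmo2Tg;p21-/- replicate 2, 0.063 without p21-/- replicate 1 and 0.068 without p21-/- replicate 2.

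Other large rises reached higher levels. Tbx4, a T-box factor of limb and lung development, stood at 0.176 and 0.0633 CPM in the p21-/- libraries and at 31.3 and 63.1 CPM in the transgenic libraries, a log2 fold change of 8.51 ± 0.51 (SE) and an adjusted p of 1.3e-06. Podxl, a sialomucin of podocytes and blood progenitors, rose from 0.176 and 0.127 to 59.2 and 31.4 CPM, by 8.14 ± 0.55 (SE) on the log2 scale with an adjusted p of 2.4e-06. Tenm4, a teneurin with a role in cell adhesion, rose from 0.528 and 0.19 to 58.7 and 36.1 CPM, by 6.99 ± 0.46 (SE) with an adjusted p of 2.3e-06, and overlaps C230038L03Rik on the other strand. All 3 genes were near the floor without the transgene. Aox1, an aldehyde oxidase, had 2 counts in the p21-/- libraries together and 287 in the transgenic libraries, a depth-corrected ratio of 154 with a 95% counting interval of 42.3 to 1280. Tmem45a had 1 count against 146, a ratio of 157 with an interval of 27.7 to 6240.

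The 12 largest falls under the same limits started from higher levels. Tdrd5, a Tudor-domain protein known from germ cells, stood at 29.7 and 23.4 CPM in the p21-/- libraries and at 0.785 and 1.03 CPM in the transgenic libraries, a log2 fold change of -4.85 ± 0.22 (SE) with an adjusted p of 3e-07. Epha2, a receptor for ephrin-A ligands, went from 10.4 and 8.42 to 0.285 and 0.423 CPM, and Ica1, an islet autoantigen involved in vesicle traffic, from 8.44 and 7.03 to 0.214 and 0.362 CPM. Both had a log2 fold change of -4.68, with adjusted p of 5.4e-06 and 6.9e-06. The 12 also held Khdrbs3 (-4.27), Krt83 (-4.20), Fam184a (-4.19), Scel (-4.14), Lhfpl2 (-4.10) and Atoh8 (-4.09). Ptgs2, which encodes cyclooxygenase-2, gave the largest fitted fall of the 12, -4.98 ± 1.7 (SE) with an adjusted p of 0.047, but it went from 2.7 and 20.4 CPM to 0.0714 and 0.604 CPM. Its call rested on single libraries: the adjusted p was 0.36 without p21-/- replicate 2, where the fold change was -2.89, 0.21 without Lmo2Tg;p21-/- replicate 1 and 0.12 without Lmo2Tg;p21-/- replicate 2, and 0.32 in limma-voom.

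Some of these genes changed together with a neighbour on the chromosome. Adamtsl2, a secreted ADAMTS-like glycoprotein, and Fam163b lie 1398 bases apart on chromosome 2, at 27079379 to 27108981 on the plus strand and 27110380 to 27142491 on the minus strand, so that their 3′ ends face each other. Adamtsl2 went from 22 and 13.4 to 0.428 and 0.966 CPM (log2 fold change -4.62) and Fam163b from 89.0 and 66.1 to 2.78 and 4.65 CPM (-4.36). Both genes lost nearly all of their reads. Evc2, the binding partner of Evc, starts 1604 bases from Evc on the opposite strand and went from 0 and 0.0633 CPM to 1.57 and 5.31 CPM, with an adjusted p of 0.0038. Lmo2Tg;p21-/- replicate 2 was the higher library for both genes of the pair.

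To set the sequences before these genes beside their changes, 250 bases upstream of the annotated start were taken from RefSeq (GRCm38.p6). The windows of 4 genes are shown, from genes at the ends of the comparison: Evc and Tbx4 among the largest rises, Lyl1, a partner of LMO2 that rose, and Ica1 among the largest falls. Each runs 5′ to 3′ on the strand of its gene, with the E-box CANNTG, the motif of basic helix-loop-helix factors, in capitals. The windows are chr5:37336882-37337131 (minus strand) for Evc, chr11:85896515-85896764 (plus) for Tbx4, chr8:84701207-84701456 (plus) for Lyl1 and chr6:8778485-8778734 (minus) for Ica1. The RefSeq start of Tbx4 lies inside the gene as GENCODE annotates it.
Evc: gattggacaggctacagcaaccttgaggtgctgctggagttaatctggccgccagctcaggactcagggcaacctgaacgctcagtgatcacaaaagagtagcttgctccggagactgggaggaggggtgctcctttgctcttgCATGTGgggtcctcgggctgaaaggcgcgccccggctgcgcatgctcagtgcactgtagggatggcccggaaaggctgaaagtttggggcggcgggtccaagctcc
Tbx4: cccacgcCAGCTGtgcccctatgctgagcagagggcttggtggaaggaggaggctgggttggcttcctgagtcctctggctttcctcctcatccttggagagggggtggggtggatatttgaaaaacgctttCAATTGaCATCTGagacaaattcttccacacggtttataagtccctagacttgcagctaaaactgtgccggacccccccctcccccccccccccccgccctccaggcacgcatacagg
Lyl1: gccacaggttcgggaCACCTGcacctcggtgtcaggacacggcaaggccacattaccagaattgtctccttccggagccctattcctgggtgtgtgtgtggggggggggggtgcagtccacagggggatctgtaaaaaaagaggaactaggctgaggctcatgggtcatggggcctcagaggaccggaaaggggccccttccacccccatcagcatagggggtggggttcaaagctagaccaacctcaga
Ica1: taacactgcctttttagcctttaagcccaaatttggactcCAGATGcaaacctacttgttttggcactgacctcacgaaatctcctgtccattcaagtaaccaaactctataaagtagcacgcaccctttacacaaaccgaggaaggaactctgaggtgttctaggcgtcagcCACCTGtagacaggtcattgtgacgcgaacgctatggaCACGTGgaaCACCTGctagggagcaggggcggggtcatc
The window of Evc held 1 E-box, that of Tbx4 3, that of Lyl1 1 and that of Ica1 4. On either strand, CANNTG lay in 7 of the 9 windows found for the 12 largest rises (77.8%), in 6 of the 10 found for the 12 largest falls (60%) and in 66.2% of 32851 windows of all promoters. The GATA-type motif AGATAA lay in 0 of 9 and 0 of 10, against 9.99% of all. Single forms of CANNTG were counted on their own, and a RUNX motif beside them. CAGCTG lay in 1 of the 9 windows of rises and 2 of the 10 windows of falls, against 13% of all. CAGGTG lay in 1 and 2 of them, against 17.2% of all, and CATCTG in 1 and 1, against 14.4%. The RUNX motif TGTGGT lay in 1 and 1, against 14%. A match describes letters and is no binding site, and these windows leave out enhancers.

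Of the LMO2 complex and its partner factors, 6 of 22 tested members were called higher (27.3%) and none lower, against 6.15% and 4.24% of all genes. Lmo2 is among the 6, and its call followed from the design, since the transgene carries it. The median log2 fold change was 0.16, or 0.09 without Lmo2Tg;p21-/- replicate 1. Lyl1, a basic helix-loop-helix partner of LMO2, stood at 2.64 and 3.61 CPM without and at 86.7 and 72.0 CPM with the transgene, a log2 fold change of 4.67 ± 0.29 (SE) with an adjusted p of 1.5e-06, and overlaps Nfix on the other strand. Hhex, a homeobox factor of blood progenitors kept in the same list, stood at 2.29 and 3.23 against 86.9 and 77.6 CPM (4.90 ± 0.21, SE, adjusted p = 1.6e-07). Both were low in every library without the transgene and high in every library with it. Nfe2, a megakaryocyte and erythroid leucine-zipper factor, went from 23.6 and 19.5 to 193 and 146 CPM (2.97) and Erg, an ETS factor of stem cells, from 44.3 and 45.2 to 152 and 125 CPM (1.63). Gata2, the stem cell GATA factor, had 3 counts in the p21-/- libraries together and 68 in the transgenic libraries, a ratio of 24.4 with a 95% counting interval of 7.99 to 121. Erg and Nfe2 were thus expressed without the transgene as well. Ldb1, the scaffold that dimerizes the complex, and Gata3 were not called. Ldb1 stood at 322 and 298 CPM and at 350 and 333 CPM (0.14, adjusted p = 0.21), and Gata3, the T-lineage GATA factor, at 109 and 93.7 and at 118 and 109 CPM (0.17, adjusted p = 0.18). Tal1 stayed low, at 0.821 and 1.27 CPM without and 1.5 and 0.725 CPM with the transgene. The E proteins Tcf3 and Tcf12 had fitted log2 changes of 0.02 and 0.03. Fli1, an ETS factor, rose less than 2-fold (0.61, adjusted p = 0.001).

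Stem and progenitor genes that are normally silenced at T-cell commitment moved in both directions. Of 38 listed genes, 29 were tested and 9 had too few counts, among them Flt3, Meis1 and Procr. Of those tested, 13 were called higher (44.8%) and 6 lower (20.7%), against 6.15% and 4.24% of all genes. The median log2 fold change was 0.86, or 1.63 when a gene had to reach 1 CPM throughout a group. The rises include the 6 factors above, with Lmo2, the transgene's own gene, among them. Kit, the receptor for stem cell factor, went from 73.9 and 77.0 to 271 and 204 CPM (1.66 ± 0.2, SE, adjusted p = 0.00015). Angpt1, an angiopoietin, went from 55.9 and 54.4 to 282 and 233 CPM (2.23), and Slamf1, the stem cell marker CD150, from 6.51 and 6.01 to 50.7 and 42.6 CPM (2.89). Cd34 went from 1.88 and 3.29 to 11.3 and 10.6 CPM (2.09) and Cd93, a C-type lectin of early progenitors, from 91.3 and 83.6 to 315 and 277 CPM (1.76). All these genes were higher in both transgenic libraries than in either p21-/- library, as were 35.5% of all genes tested. Spi1, the myeloid factor PU.1 that T-cell progenitors switch off, went from 2.23 and 2.85 to 11.8 and 9.66 CPM (2.08).

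The progenitor genes that fell were transcription factors. Hoxa7 went from 18.8 and 20.7 to 3.14 and 3.44 CPM (-2.58 ± 0.16, SE, adjusted p = 1.4e-06), and overlaps Hoxaas3 on the other strand. Bcl11a, a zinc-finger factor of lymphoid progenitors, went from 20.3 and 18.2 to 5.71 and 5.19 CPM (-1.82), and Mef2c, a factor of early lymphoid and myeloid cells, from 8.97 and 12.2 to 2.78 and 3.2 CPM (-1.82). All 3 were lower in both transgenic libraries than in either p21-/- library, as were 35.4% of all genes. Hoxa5 went from 2.93 and 5.0 to 0.928 and 1.15 CPM (-1.91). The calls of Hoxa9 and Cebpa rested on few reads. Hoxa9 had an adjusted p of 0.0095, which was 0.074 without Lmo2Tg;p21-/- replicate 2, and Cebpa, with 25 counts against 3, had 0.01, which was 0.08 without Lmo2Tg;p21-/- replicate 1 and 0.085 without p21-/- replicate 2.

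**Figure D3:**
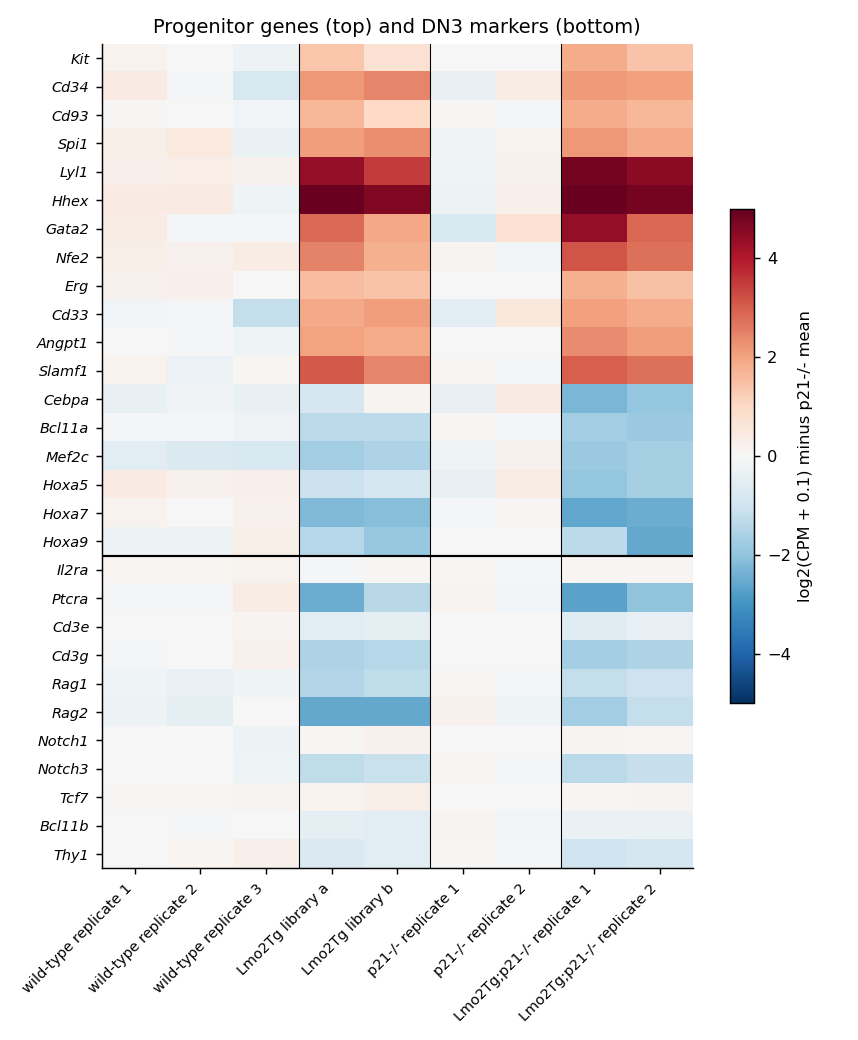
Heat map of log2(CPM + 0.1) minus the mean of the p21-/- libraries, for the called progenitor genes other than Lmo2 (top) and 11 DN3 markers (bottom) in each of 9 libraries. The 4 transgenic libraries share the high block from Kit to Slamf1 and the low values of Hoxa7, Ptcra, Cd3g and Rag2, while Il2ra, Notch1 and Tcf7 are near 0 in every library.

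The DN3 label was checked against 11 DN3 markers. Il2ra, the CD25 antigen used in the sort, stood at 1570 and 1430 CPM in the p21-/- libraries and at 1590 in both transgenic libraries. All 11 markers were detected in every library, but 5 were called lower with the transgene and none higher, and the median log2 fold change was -0.92. The count was 5 in every alternative analysis. In bulk RNA, fewer cells of a stage and less RNA per cell cannot be told apart. Of 7 early progenitor markers tested, 4 were called higher and 2 lower. Cd44, which the sort excludes, stood at 9.97 and 12.8 against 14.6 and 14.1 CPM (0.33, adjusted p = 0.23). Of 7 markers of CD4+CD8+ or later T cells, 3 were called higher and 1 lower, with a median of 0.97. Their summed level was 75.8 and 54.3 CPM in the p21-/- libraries and 117 and 138 CPM in the transgenic libraries.

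Genes of the pre-T-cell receptor and its CD3 chains were among the falls. Ptcra, the invariant pre-TCR alpha chain that defines this stage, went from 157 and 132 to 22.4 and 35.8 CPM (-2.30 ± 0.31, SE, adjusted p = 0.00031). Cd3g went from 1070 and 1050 to 326 and 364 CPM (-1.62, adjusted p = 2.3e-06), whereas Cd3e, its partner chain, went from 439 and 423 to 285 and 320 CPM (-0.51, adjusted p = 0.0015) and so by less than 2-fold. Ptcra and Cd3g were the only 2 of 33 listed signalling members called lower. In the same list 6 were called higher, with a median of 0.22 over the list, or 0.14 without Lmo2Tg;p21-/- replicate 1. The shares were 18.2% higher and 6.06% lower, against 6.15% and 4.24% of all genes. Several of the 6 are inhibitors or coreceptors of T-cell receptor signalling. Cd5, an inhibitory coreceptor, went from 24 and 21.2 to 69.4 and 70.6 CPM (1.63), Cd6 from 43.3 and 45.1 to 134 and 145 CPM (1.66) and Ubash3b, a phosphatase that dampens receptor signalling, from 4.57 and 5.38 to 30.8 and 27.8 CPM (2.56). The remaining rises were the kinase Zap70 (1.14), the adaptor Grb2 (1.00) and Cd2. Cd2 went from 5.28 and 5.06 to 41.1 and 60.3 CPM (3.29), but reads of the Cd2 gene and of CD2 elements in the transgene cannot be told apart here.

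The recombinase genes fell as well. Rag1 went from 1580 and 1400 to 643 and 733 CPM (-1.11 ± 0.11, SE, adjusted p = 3.1e-05) and Rag2 from 97.3 and 72.9 to 25.4 and 36.5 CPM (-1.46 ± 0.19, SE, adjusted p = 0.00025). They encode the paired subunits of the V(D)J recombinase, and each overlaps the annotated transcript B230118H07Rik. Dntt, the terminal transferase that adds bases at the joins, went from 2620 and 2310 to 1650 and 1750 CPM (-0.54, adjusted p = 0.0012). No other of the 14 recombination genes was called, and the median was -0.20. The median was -0.03 without Lmo2Tg;p21-/- replicate 1 and -0.35 without Lmo2Tg;p21-/- replicate 2.

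Of 33 genes of Notch signalling, which drives DN3 cells, 2 were called higher and 2 lower, or 6.06% each way, against 6.15% and 4.24% of all genes. The median was 0.09, or 0.14 without p21-/- replicate 1. Notch1 stood at 1620 and 1580 CPM without and 1740 and 1680 CPM with the transgene (0.09, adjusted p = 0.55). Notch3 went from 644 and 556 to 234 and 268 CPM (-1.26, adjusted p = 1.9e-05), and Notch2 went from 90.3 and 89.8 to 63.9 and 55.4 CPM (-0.60, adjusted p = 0.00082), which is under 2-fold. Among targets, Dtx1, a feedback regulator, went from 105 and 94.5 to 211 and 240 CPM (1.18) and Heyl from 3.58 and 4.43 to 9.92 and 10.2 CPM (1.33). Hes1, the best known target, stood at 81.1 and 109 and at 67.7 and 67.8 CPM (-0.49, adjusted p = 0.31).

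Of 23 T-lineage commitment factors, 2 were called higher and 2 lower, or 8.7% each way, against 6.15% and 4.24% of all genes. The median was 0.12, or 0.05 without Lmo2Tg;p21-/- replicate 2. Tcf7, which opens the T-cell programme, stood at 2510 and 2490 against 2690 and 2730 CPM (0.12, adjusted p = 0.33), and Bcl11b, the commitment factor, at 863 and 726 against 628 and 623 CPM (-0.35, adjusted p = 0.017). Ikzf2, the Ikaros family member Helios, went from 179 and 168 to 440 and 381 CPM (1.24) and Sox13, a factor of early gamma-delta progenitors, from 73.0 and 107 to 256 and 222 CPM (1.41). Spib, an ETS factor of progenitors, went from 46.5 and 43.3 to 18.2 and 14.8 CPM (-1.45). The number called lower was 1 without Lmo2Tg;p21-/- replicate 1, and also 1 with p21-/- replicate 1 or p21-/- replicate 2 left out in turn.

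Surface markers of later T cells gave 6 called higher (30%) and 3 lower (15%) of 20, against 6.15% and 4.24% of all genes. Their median was 0.48. Without Lmo2Tg;p21-/- replicate 2 the 3 became 1 and the median 0.18, and without p21-/- replicate 2 the median was 0.74. Klf2, the factor of mature T-cell migration, went from 3.63 and 3.54 to 42.6 and 31.9 CPM (3.37 ± 0.55, SE, adjusted p = 0.001) and Cd53, a tetraspanin, from 74.6 and 79.1 to 365 and 308 CPM (2.13). Cd4 stood at 7.39 and 2.66 against 2.71 and 3.08 CPM (-0.80, adjusted p = 0.23). Cd8a stood at 13.7 and 5.19 against 21.8 and 29.5 CPM (1.43) and was under 2-fold without p21-/- replicate 2, at 0.90. The sort takes cells that carry neither coreceptor on their surface. Ctla4, an inhibitory receptor, went from 7.03 and 9.3 to 2.85 and 3.02 CPM (-1.47, adjusted p = 0.00024).

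Among 18 tested regulators of gamma-delta and innate-like lymphocytes, 5 were called higher (27.8%) and 4 lower (22.2%), against 6.15% and 4.24% of all genes. Their median was 0.09. The median was 0.03 without Lmo2Tg;p21-/- replicate 2, 0.05 without p21-/- replicate 1 and 0.37 when a gene had to reach 1 CPM throughout a group. The 5 became 3 without Lmo2Tg;p21-/- replicate 2 and 3 without p21-/- replicate 1. Gzmb, the cytotoxic granzyme B, went from 0.176 and 0.253 to 6.49 and 4.47 CPM (4.63 ± 0.44, SE, adjusted p = 2.4e-05), while Gzma, granzyme A, went from 181 and 211 to 77.9 and 88.5 CPM (-1.24, adjusted p = 8e-05). Rora, a nuclear receptor of innate lymphoid cells, went from 4.34 and 6.2 to 43.0 and 32.1 CPM (2.83), and Maf, a factor of gamma-delta cells, from 6.39 and 8.1 to 0.999 and 1.63 CPM (-2.43). Members of the list thus moved both ways.

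Cytokine receptors that share the common gamma chain, and their signal transducers, gave 5 called higher and none lower of 24, with a median of 0.21. The share higher was 20.8%, against 6.15% of all genes. Il9r went from 11.6 and 15.3 to 60.2 and 49.9 CPM (2.03 ± 0.25, SE, adjusted p = 0.00014) and Il4ra from 11.1 and 14.1 to 59.0 and 34.2 CPM (1.88). Il7r, the receptor on which DN3 cells depend, stood at 157 and 137 against 125 and 89.1 CPM (-0.46, adjusted p = 0.058). Downstream, Stat3 went from 204 and 185 to 516 and 431 CPM (1.28, adjusted p = 6.7e-06), Stat5a from 249 and 226 to 533 and 481 CPM (1.09) and Socs2, a target and inhibitor of this signalling, from 9.32 and 9.18 to 37.8 and 21.5 CPM (1.67). Stat3 and Stat5a overlap each other on opposite strands, so reads could not be assigned between them with certainty.

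Homing and adhesion receptors included large changes each way. Of 24, 5 were called higher and 5 lower, or 20.8% each way, against 6.15% and 4.24% of all genes. The median was 0.30, which was 0.17 without p21-/- replicate 1 and 0.46 without p21-/- replicate 2. Ccr9, the chemokine receptor for CCL25 that guides thymocytes, went from 189 and 133 to 19.4 and 17 CPM (-3.15 ± 0.17, SE, adjusted p = 9.6e-07), and overlaps other annotated transcripts on both strands. Cxcr4, the receptor for CXCL12, stood at 186 and 142 against 217 and 177 CPM (0.26, adjusted p = 0.38). Itgb7, an integrin beta chain of gut homing, went from 9.5 and 6.71 to 205 and 138 CPM (4.40 ± 0.26, SE, adjusted p = 1.3e-06). Itgae, one of the alpha chains that pair with it, moved the other way, from 12.3 and 11 to 2.64 and 4.59 CPM (-1.67). Itgb3, the beta chain of the vitronectin receptor and of platelet integrin, went from 18.4 and 15.5 to 128 and 102 CPM (2.76), and Itga9 from 6.1 and 9.87 to 30.2 and 27.1 CPM (1.85).

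**Figure D4:**
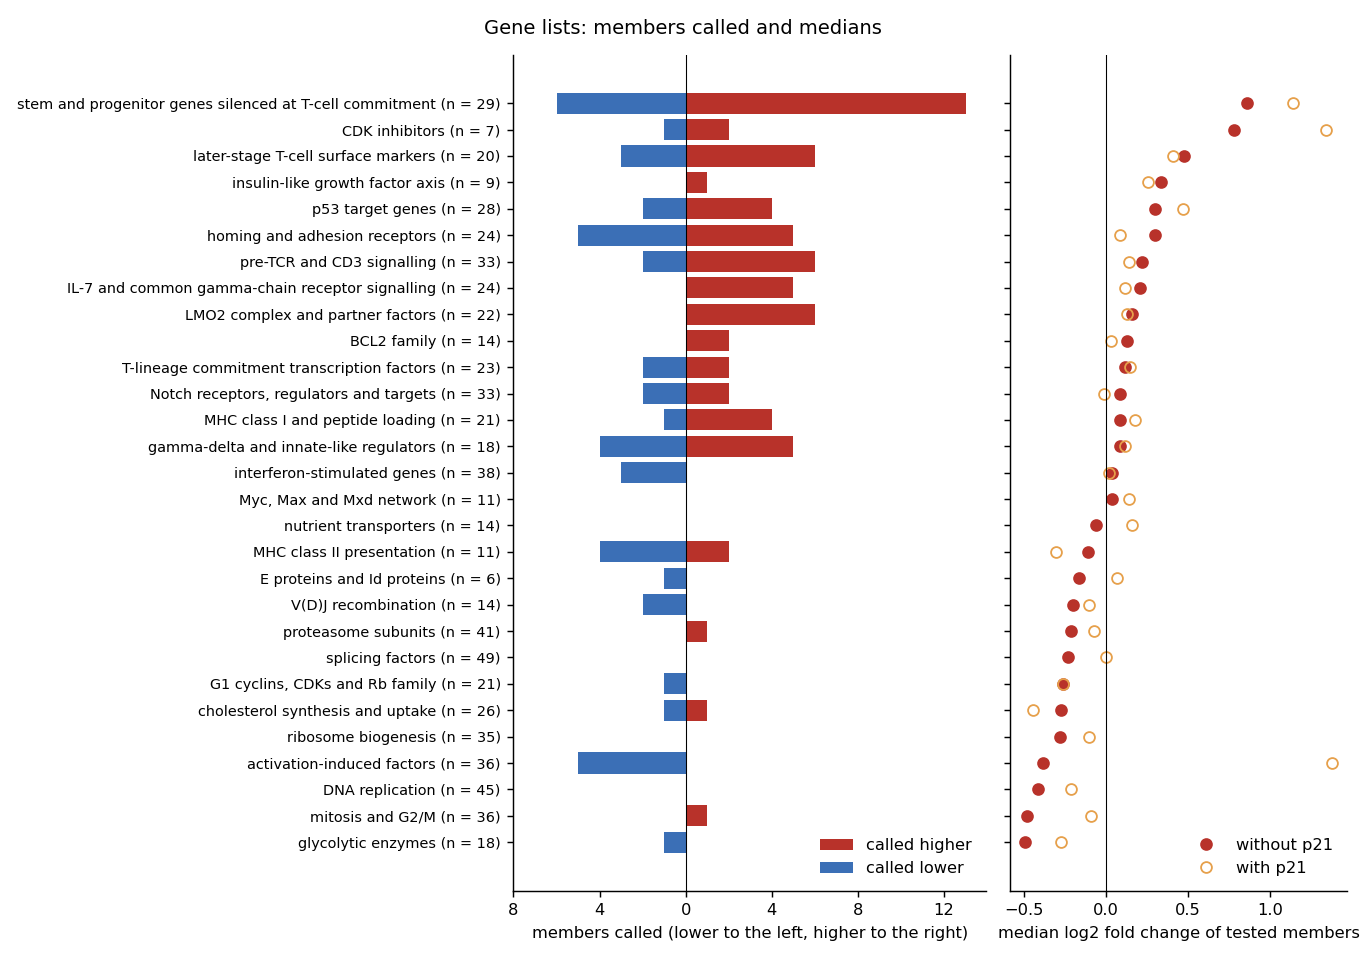
Left, the number of members of each gene list called higher or lower, with the number tested in brackets. Right, the median log2 fold change of the tested members without p21 (filled) and with p21 (open), where 0.00 is the median of all genes. Progenitor genes have the most calls, and the activation-induced genes have medians of -0.38 and 1.38.

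Some inhibitors of the cell cycle other than p21 rose. Cdkn2a, which encodes p16 and p19ARF, had 3 counts in the p21-/- libraries together and 215 in the transgenic libraries, at 7.21 and 6.88 CPM, a ratio of 77 with a 95% counting interval of 26 to 376. Cdkn2b, which encodes p15, had 0 counts in both p21-/- libraries and 0.5 and 0.664 CPM with the transgene, at least 3.18-fold higher. Cdkn2d, which encodes p19INK4d, went from 24.9 and 29.4 to 49.7 and 54.6 CPM (0.95, adjusted p = 0.00013) and Cdkn1b, which encodes p27, from 91.5 and 121 to 158 and 154 CPM (0.56, adjusted p = 0.023). Both were below the 2-fold limit. Over 7 inhibitors, 2 were called higher and Cdkn1a, the targeted gene, lower, and the median was 0.78. Without p21-/- replicate 2 the number called higher was 4.

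Genes of cell division were lower by less than 2-fold. Of 45 DNA replication genes none was called, but 32 were lower at an adjusted p under 0.05 and none higher, with a median of -0.41, and 40 of 45 had both transgenic libraries below both p21-/- libraries, against 35.4% of all genes. Of 36 mitosis genes, 19 were lower and 2 higher at that level, with a median of -0.48. Over all genes tested, 14.4% were lower and 16.3% higher at that level. Mki67, the proliferation marker Ki-67, stood at 1390 and 1580 CPM without and at 853 and 1140 CPM with the transgene (-0.58, adjusted p = 0.02). The summed level of the mitosis genes was 7390 and 8330 CPM in the p21-/- libraries and 5030 and 6650 CPM in the transgenic libraries. These counts depended on single libraries. Without Lmo2Tg;p21-/- replicate 1 the numbers lower were 2 for replication and 0 for mitosis, and without p21-/- replicate 2 they were 7 and 0. The median of the mitosis genes was -0.27 without Lmo2Tg;p21-/- replicate 1 and -0.79 without Lmo2Tg;p21-/- replicate 2. The 2 mitosis genes that rose were Cdc25b and Pttg1. Cdc25b, a phosphatase that activates mitotic kinases, went from 61.8 and 74.3 to 143 and 155 CPM (1.13, adjusted p = 2e-05). Pttg1, the securin that holds separase inactive, went from 11.1 and 10.8 to 15.6 and 17.4 CPM (0.59, adjusted p = 0.011).

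Of 28 p53 target genes, 4 were called higher (14.3%) and 2 lower (7.14%), against 6.15% and 4.24% of all genes. Their median was 0.30. Zmat3, an RNA-binding target of p53, went from 5.92 and 4.18 to 30.5 and 38.5 CPM (2.77 ± 0.25, SE, adjusted p = 2e-05). Of the falls, Cdkn1a is a p53 target but also the gene knocked out on both sides, so its remaining reads cannot be taken as p53 output. Tnfrsf10b, a death receptor, went from 4.4 and 4.37 to 1.43 and 1.69 CPM (-1.48). The number higher was 1 without Lmo2Tg;p21-/- replicate 2, and 2 without Lmo2Tg;p21-/- replicate 1 or without p21-/- replicate 1. Mdm2, the ligase that degrades p53, stood at 101 and 123 against 128 and 123 CPM (0.17, adjusted p = 0.34), and Bcl2, the survival factor, at 175 and 144 against 212 and 162 CPM (0.23, adjusted p = 0.27). Myc, a driver of growth, stood at 358 and 249 against 208 and 215 CPM (-0.52, adjusted p = 0.064).

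Activation-induced factors, the immediate-early and feedback genes that respond to receptor signals or handling, were read with caution because p21-/- replicate 2 exceeded replicate 1 for 33 of 36 of them, with a median ratio of 1.99. None was called higher and 5 lower, with a median of -0.38. The median was 0.21 without p21-/- replicate 2, where 1 gene was called higher, and -0.80 without p21-/- replicate 1. Nr4a3, an orphan nuclear receptor, went from 2.93 and 54.6 to 1.71 and 2.29 CPM (-3.82, adjusted p = 0.031), and the fold change without p21-/- replicate 2 was -0.54. Fosl2, an AP-1 subunit, went from 2.81 and 25.2 to 1.36 and 0.725 CPM (-3.76), and the fold change without that library was -1.46. The number lower was 0 without p21-/- replicate 2, 0 without Lmo2Tg;p21-/- replicate 1, 2 without Lmo2Tg;p21-/- replicate 2 and 10 without p21-/- replicate 1, and it was 1 in limma-voom. Lists that can mark handling or RNA quality are set beside them. Of 15 heat-shock and stress genes, 7 were lower and 2 higher at an adjusted p under 0.05, against 14.4% and 16.3% of all genes. Their median was -0.35 without p21 and 0.46 with it. Their summed level was 9530 and 10700 CPM in the p21-/- libraries and 6580 and 7550 CPM in the transgenic libraries. The 11 replication-dependent histone genes tested had a median of -0.52 without p21 and 0.45 with it, and the former was 0.10 without p21-/- replicate 2. The part of handling in these values was not tested.

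Markers of other cells were low, with exceptions. Natural killer or innate lymphoid markers summed to 224 and 249 CPM without and 131 and 150 CPM with the transgene, most of it from Gzma. Of 4 listed mast cell or basophil markers, the 2 tested, Cpa3 and Gata2, were both called higher. Cpa3, a mast cell carboxypeptidase, went from 67.7 and 73.3 to 827 and 545 CPM (3.28 ± 0.29, SE, adjusted p = 1.7e-05). Gata2, described above, had a fitted change of 4.52 from few reads. The other listed genes, Mcpt8 and Fcer1a, were between 0 and 0.19 CPM in the 4 libraries. Summed over 10 listed myeloid markers, the level was 29.6 and 35.1 CPM without and 29.8 and 38.7 CPM with the transgene. Itgam and Mpo, a myeloid integrin chain and myeloperoxidase, were called higher (1.43 and 2.06), the number of the 9 tested markers called was 1 without either transgenic library or without p21-/- replicate 1, and Elane, neutrophil elastase, was between 0 and 0.38 CPM. B-cell markers summed to 37.8 and 31.2 CPM without and 25.3 and 23.5 CPM with the transgene, with none of 5 tested called, and Pax5 and Ebf1 at or below 0.528 CPM. The summed level of 9 stroma markers was 192 and 181 CPM without and 279 and 236 CPM with the transgene, most of it from Pecam1, an endothelial adhesion molecule that blood cells also carry, at 143 and 137 against 263 and 221 CPM (0.79, adjusted p = 0.00017). Of the 4 tested, 2 were called lower. Cdh5, an endothelial cadherin, went from 1.7 and 1.65 CPM to 0 counts, and Epcam, an epithelial adhesion molecule, went from 46.9 and 41.1 to 15 and 13.9 CPM (-1.61), and the thymic epithelial genes Krt5 and Foxn1 were at 0 counts in the 4 libraries. The part of other cells in the results was not tested.

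The transgene effect without p21 was set beside that with p21, the comparison of the 2 Lmo2Tg libraries with the 3 wild-type libraries, which shares no library with it. With p21, 1420 genes were called (12%), 863 higher (7.29%) and 557 lower (4.7%). Of the 1230 genes called without p21, 878 were called in the same direction with p21, which is 71.4% of the former and 61.8% of the latter, and 10 in the opposite direction. The genes called higher without p21 had a median log2 fold change of 1.68 there and of 1.49 with p21, and the genes called lower -1.82 and -1.55. Since the genes were chosen by their values without p21, the smaller medians with p21 are a description. Across the 11840 genes, which are not independent of each other, Pearson's r of the fold changes was 0.78 and Spearman's rho 0.64. All of the 12 largest rises and 11 of the 12 largest falls were also called with p21, Ptgs2 being the exception with a log2 fold change of -0.17.

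The difference between the effects was tested as an interaction, the effect without p21 minus the effect with p21. It was called for 95 genes (0.802%), of which 9 were higher (0.076%) and 86 lower (0.726%). None of the 24 genes with the largest changes was called. Several of the rises had no or almost no reads in both groups without the transgene, so the interaction cannot decide for them. Its SE was 7426.78 for Evc and 99.74 for Ryr2. Of 342 genes called only without p21, 5 were called in the interaction, so a call in 1 genotype alone seldom came with a tested difference. Hhex rose by 4.90 without and 4.60 with p21 (interaction adjusted p = 0.61) and Lyl1 by 4.67 and 3.77 (0.26), and Kit by 1.66 and 1.14 (0.34). Cdkn1a was lower in the transgenic cells by more without p21 than with it. It stood at 32.8 and 26.3 CPM in the Lmo2Tg libraries, and its log2 fold change with p21 was -0.47 against -2.03 without, an interaction of -1.56 ± 0.27 (SE) with an adjusted p of 0.032. Among the activation-induced genes, 18 of 36 were called higher with p21, against 7.29% of all genes, and none without. Their summed level was 5180 and 6630 CPM in the Lmo2Tg libraries, 1110 to 2840 CPM in the wild-type libraries, 1350 and 2770 CPM in the p21-/- libraries and 1570 and 1720 CPM in the Lmo2Tg;p21-/- libraries. The interaction counts depended on single libraries. No gene was called without Lmo2Tg;p21-/- replicate 1, without wild-type replicate 1 or without wild-type replicate 3, and 1 gene, higher, without Lmo2Tg;p21-/- replicate 2. Without p21-/- replicate 2 the numbers were 1 higher and 15 lower, and without p21-/- replicate 1 they were 68 and 191.

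**Figure D5:**
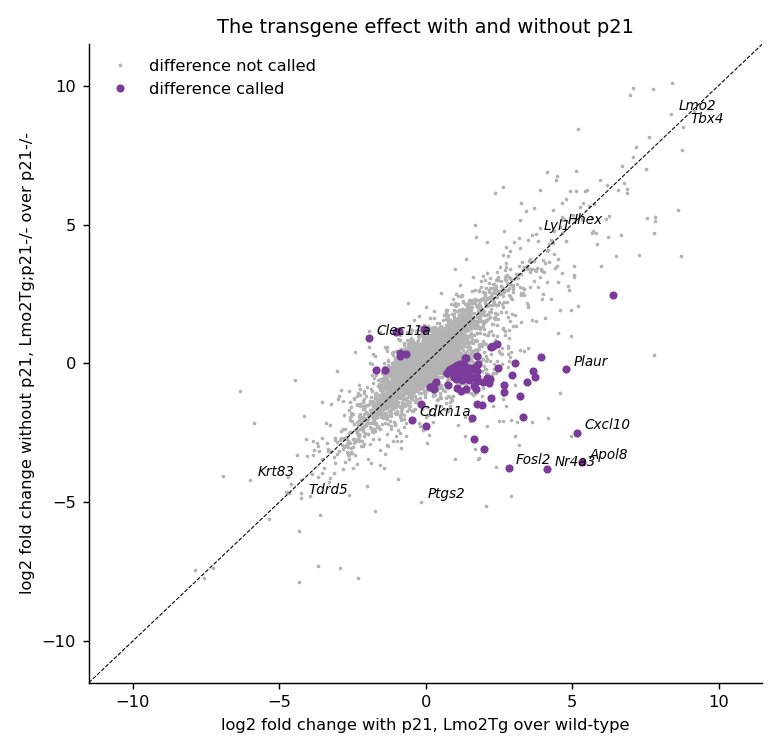
The log2 fold change of each gene tested without p21 against that with p21, with genes called in the interaction in colour and the line of equal change dashed. Most genes lie along the line, and most coloured points lie below it, including Nr4a3, Fosl2 and Cxcl10.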

How the data were processed

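The RNA-seq data comprise 9 genotype libraries of DN3 thymocytes, 4 of which form the comparison. The authors deposited raw counts per gene, with no normalization. The submitters' processing notes name STAR 2.4.2a, featureCounts, limma and mm10, and a strand setting is not given in the sources used here. Columns were matched to samples by their labels. For 1 column, named like a further Lmo2Tg;p21-/- library, no sample could be assigned, and it was not used. The labels list a p21-/- replicate 3, which was not analysed here, and whether the column and this sample belong together was not settled. The short names of the Lmo2Tg columns are also given to GFP-low samples in the labels, so these columns were used as a group without replicate numbers.

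Counts were filtered (filterByExpr, minimum count 10, minimum total 15), scaled by TMM and tested in edgeR 4.0.16 (R 4.3.3) by the quasi-likelihood test with Benjamini-Hochberg adjustment, in 1 fit of the 9 libraries with a term for each group and no block. Calls needed an FDR under 0.05 and a fold change above 2. On simulated data with 200 of 11840 genes changed by 2 on the log2 scale, 198 changed genes and 0 others were called in the main comparison, and 191 and 2 in the interaction. The changed genes averaged 1 CPM or more, and the simulated spread depended on the level of a gene alone. Shifts of single libraries, as seen in the data, were not simulated, so the recovery does not cover them. Alternatives were DESeq2 1.42.0, limma-voom 3.58.1, other scaling and filters, the 4 libraries alone, a replicate block, an FDR of 0.01 and leaving out each library. Replicate numbers did not pair the samples: replicate differences of the groups correlated at 0.05, 0.08 and 0.05. Positions came from GENCODE M21 (21798 of 22114 genes, 98.6%). No libraries of a group agreed within sampling noise (chi-square per degree of freedom 2.59 to 17.8). Besides the overlaps given in the text, further named genes overlap a gene on the other strand, so their reads are uncertain to that extent. They are Ldb1, Gata3, Cebpa, Ikzf2, Notch1, Notch3, Cd3e, Rora, Maf, Il4ra, Cdc25b, Tdrd5, Bcl2, H2-DMa, H2-Oa and Cxcl10.

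Named genes were the 12 largest changes each way (called, mean of 1 CPM or more, groups not overlapping), the genes named by the study, up to 4 called members of each list in each direction and key members, and the 5 largest interactions in each direction. Other list members are named where a short count is spelled out. Some single genes are not reported here. The members, lists and tests were chosen with earlier results of these data known.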

Additional observations from a re-analysis of the deposited data

Results flagged for a closer look

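Several genes responded to the transgene differently without p21 than with it, in a test of the difference itself (quasi-likelihood test of edgeR, Benjamini-Hochberg adjusted, log2 fold change without p21 minus that with p21). Clec11a, a secreted growth factor of bone marrow stroma and progenitors, had an interaction of 2.83 ± 0.34 (SE) with an adjusted p of 0.016. It stood at 6.45 and 5.19 CPM in the p21-/- libraries and at 13.2 and 8.82 CPM in the Lmo2Tg;p21-/- libraries, but at 5.64, 5.34 and 6.05 CPM in the wild-type and 1.48 and 1.5 CPM in the Lmo2Tg libraries. Zfp760, a zinc-finger gene, went from 20.5 and 13.4 to 45 and 32.4 CPM without p21 and from 17.3, 15.3 and 19.7 to 11.6 and 7.04 CPM with it (2.09, adjusted p = 0.03). Ccr7, a chemokine receptor of mature T cells, went from 1.99 and 1.39 to 3.35 and 4.05 CPM without p21 and from 3.0, 2.86 and 3.69 to 1.78 and 1.37 CPM with it (2.14, adjusted p = 0.033). These 3 genes were fitted higher with the transgene in the absence of p21 and lower in its presence.

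Zfp229 had an interaction of 1.46 and Tnfaip8l2, an inhibitor of immune signalling, one of 1.29. In the other direction, Apol8 had an interaction of -8.91, Nr4a3 of -7.98, the chemokine gene Cxcl10 of -7.67, Fosl2 of -6.60 and Plaur, the urokinase receptor, of -5.02. All 5 had more reads in p21-/- replicate 2 than in replicate 1, and more in both Lmo2Tg libraries than in any wild-type library. Apol8, for example, stood at 0.176 and 1.58 CPM in the p21-/- libraries and at 0.143 and 0 CPM in the Lmo2Tg;p21-/- libraries, against 5.47 and 1.91 CPM in the Lmo2Tg libraries. Plaur was at 14.9 and 8.55 CPM in the Lmo2Tg libraries and at most 1.46 CPM in each library without p21. Cdkn1a had an interaction of -1.56 and Ctla4 one of -1.31 (adjusted p = 0.036), with Ctla4 at 8.65 and 8.0 CPM in the Lmo2Tg libraries and 2.85 and 3.02 CPM in the Lmo2Tg;p21-/- libraries. At a false discovery rate of 0.01, no interaction was called.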

How the results depend on the processing

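At an FDR of 0.05, the counts of genes called higher and lower in Lmo2Tg;p21-/- against p21-/- stayed within 1.5 times of 728 and 502. This held under every alternative run at that rate, among them DESeq2 (679 and 451), limma-voom (725 and 494), the 4 libraries alone (713 and 475) and no filter (771 and 539). Leaving out a library gave 588 to 719 higher and 389 to 518 lower. Of 109 called genes that the naming rule chose, 80 kept the call under all 11 settings and 0 reversed. The interaction was less stable, with 9 higher and 86 lower. It gave 23 and 138 in DESeq2, 41 and 183 with no filter, 5 and 63 in limma-voom, and 0 and 0 at an FDR of 0.01. Leaving out each library gave 0 to 68 higher and 0 to 191 lower. Without Lmo2Tg;p21-/- replicate 1, 626 genes were higher and 741 lower at an unadjusted p under 0.05, without wild-type replicate 1 they were 950 and 873, and without wild-type replicate 3 they were 1144 and 1202. The cause was not tested. With the replicate block, on the 7 libraries with a number, 739 genes were called higher and 540 lower, although the pairing check found no shared deviation. No paired analysis was possible for the interaction because the short names of the Lmo2Tg columns are shared with other samples in the labels and give no certain replicate number. With 2 libraries a group, changes below the 3-count floor of 0.176 to 0.222 CPM were not detectable.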

Other observations

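Antigen presentation genes moved in both directions. Of 11 class II genes tested, 4 were called lower (36.4%) and 2 higher (18.2%), against 4.24% and 6.15% of all genes. Their median log2 fold change was -0.11. The median was 0.11 without Lmo2Tg;p21-/- replicate 1, -0.36 without Lmo2Tg;p21-/- replicate 2, -0.02 without p21-/- replicate 1 and -0.27 without p21-/- replicate 2. H2-DMa and H2-DMb2 belong to the peptide exchange factor H2-M, and H2-DMa went from 24.3 and 23.8 to 6.92 and 8.21 CPM (-1.66 ± 0.13, SE, adjusted p = 8.1e-06 in edgeR's quasi-likelihood test). H2-DMb2 went from 3.05 and 3.35 to 1.07 and 1.03 CPM (-1.60), and H2-Ab1, a chain of the class II molecule itself, from 7.74 and 9.94 to 2.85 and 3.44 CPM (-1.48). H2-Ob, which encodes a chain of H2-O, the inhibitor of H2-M, went the other way, from 7.56 and 7.03 to 17.6 and 16.3 CPM (1.22, adjusted p = 0.00077). H2-Oa, the other chain, stood at 4.28 and 4.62 against 9.63 and 8.63 CPM (1.04), and was under 2-fold without Lmo2Tg;p21-/- replicate 1 (0.94) or without p21-/- replicate 1 (0.98). Class II genes of professional antigen-presenting cells were low in all 4 libraries, and Cd74 stood at 3.75 and 4.81 against 3.35 and 5.07 CPM. Among 21 class I genes, H2-T23, a ligand of inhibitory receptors, went from 65.7 and 63.7 to 134 and 139 CPM (1.08, adjusted p = 5.9e-06). Close paralogs share sequence in this region, so reads of single class I genes are uncertain.

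Interferon-stimulated genes had 0 members called higher and 3 lower of 38 (7.89%), against 6.15% and 4.24% of all genes. Their median was 0.04, which was -0.02 without Lmo2Tg;p21-/- replicate 1. Ifi44 went from 9.03 and 8.16 to 2.07 and 1.75 CPM (-2.17), Irf8, a factor of myeloid and dendritic cells, from 12.7 and 12.2 to 3.14 and 3.92 CPM (-1.80) and Iigp1, a GTPase of cell defence, from 11.2 and 12.2 to 3.35 and 3.44 CPM (-1.78). At any fold, 6 were higher and 8 lower at an adjusted p under 0.05. Over all genes tested, 16.3% were higher and 14.4% lower at that level, and the counts at that level below are read beside these shares too. Among metabolic genes, Abca1, which exports cholesterol, went from 9.56 and 9.05 to 36.8 and 29.0 CPM (1.82, adjusted p = 2.3e-05). The median of 26 cholesterol genes was -0.27, or -0.41 without Lmo2Tg;p21-/- replicate 2. Of 18 glycolytic enzymes, 11 were lower at an adjusted p under 0.05 and 2 higher, with a median of -0.49, and the number lower was 5 without Lmo2Tg;p21-/- replicate 1, 7 without p21-/- replicate 1 and 4 without p21-/- replicate 2. Of 35 ribosome biogenesis genes, 34 had both transgenic libraries below both p21-/- libraries, with a median of -0.28, and 19 were lower at that level, which became 8 without Lmo2Tg;p21-/- replicate 1 and 11 without either p21-/- library. For comparison, 35.4% of all genes tested had both transgenic libraries below both p21-/- libraries. Igfbp4, which binds insulin-like growth factors, went from 25.2 and 33.2 to 123 and 75.8 CPM (1.77, adjusted p = 0.00022).

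By chromosome, 2 sets of genes were shifted together by a little. On chromosome 12, the 407 genes tested had a median change (log2) of -0.16, with 32.4% of them higher, and the medians were -0.24 and -0.27 for Lmo2Tg;p21-/- replicate 1 and -0.07 and -0.09 for replicate 2 against the p21-/- libraries. The 462 genes on chromosome 15 had a median of 0.09, with 60% higher, and medians of 0.09 to 0.11 in every pair of libraries. With p21 the medians were -0.10 and 0.13. The other autosomes and the X chromosome had medians between -0.05 and 0.04. No test was run on these medians.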
